A study of Mus musculus with 15 samples.

Results

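Kel and the endothelin system, 10 genes in all, were followed through a mouse pancreatitis experiment. They are Kel, which encodes the membrane protease that carries the Kell blood group antigens, the endothelin precursors Edn1, Edn2 and Edn3, the receptors Ednra and Ednrb, and the related proteases Ece1, Ece2, Ecel1 and Mme. They were found by matching the RefSeq accession given for each probe to a gene symbol, which yielded 12 probes of 55681 and 10 genes of 20660 on the array. Ednrb and Mme had 2 probes each and the others 1. To enter the tests a gene needed a probe that the scanner marked as well above background on 3 or more of the 15 arrays. Of the 10 genes 9 passed, and the Edn3 probe was not above background on any array. The members were chosen by the difference of Kel between cerulein and saline, so the values of Kel in those comparisons are a description and carry no test.

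RNA of the entire pancreas was profiled in male C57BL/6J mice, 1 array per animal. Mice had fasted for 18 h and were killed 3 h after a single intraperitoneal injection of saline or of 50 µg/kg cerulein, an analogue of cholecystokinin that causes acute pancreatitis in rodents, and the labels give saline animals a time of 0 h. The groups were wild type (WT) with saline (4 animals), transgenic (TG) with saline (3 animals), wild type with cerulein (4 animals) and transgenic with cerulein (4 animals). The series title links the transgenic mice to betacellulin, an epidermal growth factor family ligand. The promoter that drives the transgene, the founder line and the age of the animals are not given in the sources used here. The series text states 4 animals for each group, while 3 transgenic saline arrays were analysed. Since bulk tissue was measured, fewer cells of a type and less RNA per cell cannot be told apart.

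Endothelins are short peptides that constrict blood vessels and act on 2 G protein-coupled receptors. EDNRA lies mainly on smooth muscle and drives contraction, and EDNRB lies on endothelium, where it promotes nitric oxide release and clears the peptide, as well as on glia. The precursors, called big endothelins, become active only after cleavage by metalloproteases of the M13 family, of which ECE1 is the main one. KEL belongs to the same family, is known from red blood cells, and cleaves big endothelin-3 in preference to the other precursors. Neprilysin, the product of Mme, degrades endothelins and many other peptides. In the pancreas, endothelin-1 is known as a constrictor of the small vessels that supply the acini.

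The start regions of Kel and of Edn1 are shown because Kel was the member with the large difference and Edn1 is the best studied precursor of the peptides on which this family acts. Each runs from 250 bases before to 20 bases after the RefSeq start of the transcript in build GRCm38.p6, 5′ to 3′ on the gene's own strand. Kel lies on the minus strand at chr6:41704306-41704575 and Edn1 on the plus strand at chr13:42301226-42301495.
Kel: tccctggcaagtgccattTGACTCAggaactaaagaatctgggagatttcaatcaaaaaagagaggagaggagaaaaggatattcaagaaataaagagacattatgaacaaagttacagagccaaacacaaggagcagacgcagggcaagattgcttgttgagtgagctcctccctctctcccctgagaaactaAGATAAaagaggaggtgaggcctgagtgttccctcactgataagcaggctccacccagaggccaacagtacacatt
Edn1: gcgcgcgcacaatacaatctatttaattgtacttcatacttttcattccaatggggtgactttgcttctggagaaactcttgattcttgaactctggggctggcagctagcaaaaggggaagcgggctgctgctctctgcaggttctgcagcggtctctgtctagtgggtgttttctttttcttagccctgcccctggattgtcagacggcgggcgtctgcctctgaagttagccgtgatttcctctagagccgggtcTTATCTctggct

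Capitals mark matches, on either strand, to the AP-1 motif TGANTCA, the CRE motif TGACGTCA, the CARE motif TGATGCAA or the GATA motif AGATAA. The Kel window held an AP-1 match whose first base lies at -232 from the start and a GATA match at -56, and no CRE or CARE match. The Edn1 window held a GATA match at 9 and none of the other 3. Over 32851 RefSeq windows of 300 bases (250 before and 50 after the start), 7.81% held the AP-1 motif, 11.2% the GATA motif, 1.79% the CRE motif and 0.895% the CARE motif, and 1.19% held both AP-1 and GATA matches as Kel does. The 10 genes have 15 such windows. Apart from Kel, an AP-1 match occurred only in 2 of the 3 overlapping or neighbouring Mme windows, as TGAGTCA. The E-box CANNTG, present in 72.3% of all windows, occurred 3 times in the 300-base Kel window, and its copy at -236 overlaps the AP-1 match. The GC box GGGCGG, present in 35.7% of windows, had no match there. These matches describe letters, and no binding was measured.

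Levels are given as the log2 processed signal minus the 75th percentile of that array, so that 0 is the level of the 75th percentile probe and levels of different probes are not compared with each other. That percentile ranged from 152 to 529 intensity units and 54.9% to 76.0% of probes were well above background. The percentile was 152 to 283 on saline arrays and 201 to 529 on cerulein arrays. The arrays lay on 3 slides. Slide 1 held WT saline 5, TG saline 2, WT cerulein 9 and TG cerulein 13 and 14, while slide 3 held WT saline 6, 7 and 8, TG saline 3 and 4, WT cerulein 10 and TG cerulein 15. Slide 2 held cerulein arrays only, namely WT cerulein 11 and 12 and TG cerulein 16. For this reason differences within slides 1 and 3, where a group has 1 to 3 arrays, and a fit with the slide as a block, stand beside results that they change.

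Kel stood far above its saline level in every cerulein animal of both genotypes, whereas none of the other members passed the test for a cerulein response. In wild type mice, 0 of the 8 other measured members were called (limma, Benjamini-Hochberg adjusted p below 0.05 over 17338 genes), against 14% of all genes, and none had saline and cerulein animals that did not overlap, against 17.4% of all genes. In transgenic mice 0 of 8 were called, against 8.20% of all genes, and 1 of 8, Ece1, did not overlap, against 21.6%. At an unadjusted p below 0.05 there were 0 of the 8 in wild type and 2, Edn1 and Ece1, in transgenic mice. The median difference of the 8 was 0.08 in wild type and 0.17 in transgenic mice, beside -0.06 over all genes in both. With the slide as a block, Edn1 (higher) and Ece1 (lower) were called in the transgenic response, in a fit that called 23.6% of all genes, and no other member was called in the wild type response, in a fit that called 21.5%.

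**Figure D1:**
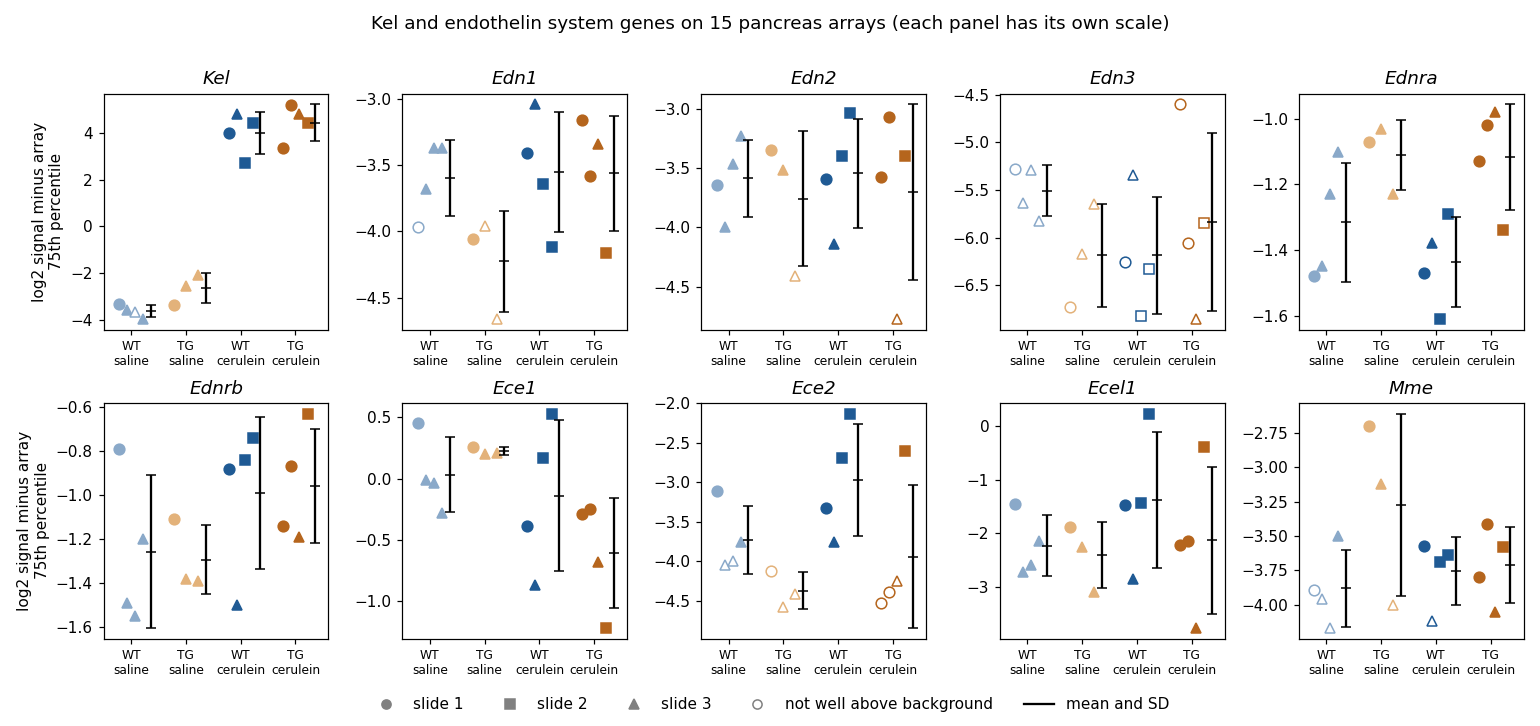
Level of each of the 10 genes (log2 processed signal minus the 75th percentile of the array, own vertical scale in each panel) on 15 arrays in 4 groups, with the mean and SD of each group. Shape gives the slide and open symbols mark arrays on which the probe was not well above background. The 8 cerulein arrays lie above the 7 saline arrays for Kel, while the groups of the other genes lie close together or spread with the slide, as Ecel1 and Ece2 do.

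Edn1 encodes endothelin-1, the vasoconstrictor made mainly by endothelium. Its level was -3.97, -3.68, -3.37 and -3.37 in the WT saline animals and -3.41, -3.04, -3.64 and -4.12 in the WT cerulein animals. It was -4.06, -3.96 and -4.66 in TG saline and -3.16, -3.58, -3.34 and -4.16 in TG cerulein. The groups overlapped in each genotype, and TG saline was the group with the lowest values. Before the percentile was subtracted, the processed signal was 11.9 to 19.6 in WT saline and 21.9 to 33.0 in WT cerulein. It was 7.43 to 17.0 in TG saline and 26.1 to 36.9 in TG cerulein. The overlap of the treatments in Edn1 thus arose with the scaling. The probe was close to its detection limit: it was not well above background on WT saline 5 and TG saline 3 and 4. It was printed 10 times on each array, and the SD of the log2 signals of those spots within an array ranged from 0.12 to 0.58, with a median of 0.26, beside SDs of 0.29 to 0.45 between the animals of a group.

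The cerulein difference of Edn1 was 0.05 ± 0.28 (SE) in wild type mice, adjusted p = 0.922, with a 95% interval of -0.55 to 0.65. In transgenic mice it was 0.67 ± 0.30, a 1.59-fold higher level, adjusted p = 0.216. With the slide as a block it was 0.89 ± 0.23 in transgenic mice (adjusted p = 0.0145) and 0.45 ± 0.23 in wild type mice (adjusted p = 0.202). Within slide 1 the difference was 0.69 in transgenic and 0.57 in wild type mice, and within slide 3 it was 0.97 and 0.43. All 4 within-slide differences were above 0, and Edn1 was lower on the slide 2 arrays (-4.16 to -3.64) than on the other cerulein arrays (-3.58 to -3.04). Other processing changed the sign. In wild type mice another background correction (normexp) gave -0.42 and quantile normalization -0.22, neither called. Over the alternative settings the transgenic difference ranged from -0.27 to 0.89. The difference between the genotypes' responses was 0.62 ± 0.41, adjusted p = 1, so a response in one genotype and not in the other was not shown.

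Edn2, the precursor of endothelin-2, was at -3.64, -4.0, -3.47 and -3.23 in WT saline and at -3.59, -4.14, -3.40 and -3.04 in WT cerulein. In transgenic mice it was at -3.35, -3.52 and -4.41 with saline and at -3.58, -3.07, -4.77 and -3.40 with cerulein, and the lowest value of each of these groups was not well above background. The ranges of saline and cerulein animals nearly coincided in both genotypes. The differences were 0.04 ± 0.36 in wild type (95% interval -0.73 to 0.82) and 0.06 ± 0.39 in transgenic mice (-0.78 to 0.89), so that changes of up to about these bounds would not have been seen.

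Edn3, the precursor that Kell cleaves best, had no measured level. Its probe read between -6.85 and -4.60 over the 15 arrays and was not well above background on any of them, with either treatment. No fold is given, and the data show only that any Edn3 transcript was below the detection limit of this probe.

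Ednra, the receptor of smooth muscle, was above background on all 15 arrays and varied little between animals. WT saline animals had -1.48, -1.45, -1.23 and -1.10 and WT cerulein animals -1.47, -1.38, -1.61 and -1.29. TG saline animals had -1.07, -1.03 and -1.23 and TG cerulein animals -1.13, -1.02, -0.98 and -1.34. Saline and cerulein animals overlapped in both genotypes. The cerulein difference was -0.12 ± 0.17 in wild type mice, with a 95% interval of -0.49 to 0.24, and -0.01 ± 0.18 in transgenic mice, with an interval of -0.40 to 0.38. Among the 8 members other than Kel these are the narrowest intervals in both responses. In folds they run from 0.714 to 1.18 in wild type and from 0.756 to 1.30 in transgenic mice.

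Ednrb, the receptor of endothelium and glia, was read by 2 probes, both above background on every array. The brighter one gave -0.79, -1.49, -1.55 and -1.20 in WT saline and -0.88, -1.50, -0.84 and -0.74 in WT cerulein. In TG saline it gave -1.11, -1.38 and -1.39 and in TG cerulein -1.14, -0.87, -1.19 and -0.63. Its level followed the slide within each treatment: the cerulein mean was -0.96 on slide 1, -0.74 on slide 2 and -1.35 on slide 3, and the saline mean was -0.95 on slide 1 and -1.40 on slide 3. The cerulein difference was 0.27 ± 0.23 (adjusted p = 0.440) in wild type and 0.33 ± 0.25 (adjusted p = 0.484) in transgenic mice, and fell to -0.06 ± 0.14 and 0.10 ± 0.14 with the slide as a block. The dimmer probe gave differences of -0.11 ± 0.19 in wild type and 0.42 ± 0.21 in transgenic mice, so the probes differed in sign in wild type mice, with neither passing the test.

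Ece1 encodes the main endothelin-converting enzyme, a membrane protease of endothelium and many other cells, and was above background on all 15 arrays. WT saline animals had 0.45, -0.01, -0.04 and -0.28 and WT cerulein animals -0.39, -0.87, 0.17 and 0.53. TG saline animals had 0.26, 0.20 and 0.21 and TG cerulein animals -0.29, -0.25, -0.68 and -1.22. In transgenic mice every cerulein animal lay below every saline animal, the separation that 21.6% of all genes showed. In wild type mice the groups overlapped, and the 2 cerulein animals above the others, WT cerulein 11 and 12, were the pair on slide 2.

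The cerulein difference of Ece1 was -0.83 ± 0.32 in transgenic mice, a 1.78-fold lower level, adjusted p = 0.142, and -0.17 ± 0.30 in wild type mice, adjusted p = 0.713. With the slide as a block it was -1.02 ± 0.31 in transgenic mice (adjusted p = 0.0327) and -0.40 ± 0.31 in wild type mice (adjusted p = 0.418). Within slides the differences had 1 sign: -0.53 in transgenic and -0.85 in wild type mice on slide 1, and -0.88 and -0.76 on slide 3. With cerulein the transgenic minus wild type difference was -1.57 on slide 2 (TG cerulein 16 against WT cerulein 11 and 12), 0.12 on slide 1 and 0.19 on slide 3. The difference between the genotypes' responses was -0.66 ± 0.44, adjusted p = 1.

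Ece2, a converting enzyme of acidic secretory compartments, was near the detection limit. WT saline animals had -3.11, -4.05, -3.99 and -3.76, of which the first and the last were above background, and WT cerulein animals had -3.32, -3.75, -2.69 and -2.13, all above background. TG saline animals had -4.12, -4.58 and -4.41, none above background, and TG cerulein animals -4.53, -4.39, -4.25 and -2.60, of which only the last was above background. The highest 3 values of the 15 were the 3 arrays of slide 2. The difference in wild type mice was 0.75 ± 0.42 (adjusted p = 0.238) and became -0.05 ± 0.24 with the slide as a block, with -0.21 within slide 1 and 0.18 within slide 3. In transgenic mice the measured difference was 0.43 ± 0.46, -0.02 without TG cerulein 16 and -0.03 with the slide as a block, and no fold is given because 6 of the 7 values were not above background.

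Ecel1 encodes an M13 protease of neurons with no known endothelin-converting role. Its levels were -1.45, -2.72, -2.60 and -2.14 in WT saline and -1.47, -2.86, -1.43 and 0.24 in WT cerulein. They were -1.88, -2.26 and -3.09 in TG saline and -2.22, -2.15, -3.77 and -0.39 in TG cerulein. The spread within the cerulein groups, with SDs of 1.27 in wild type and 1.38 in transgenic mice (n = 4 each), was the widest of the measured members, and the 3 highest values of all arrays again lay on slide 2. The cerulein difference was 0.85 ± 0.67 in wild type and 0.28 ± 0.72 in transgenic mice, and turned to -0.43 ± 0.40 and -0.55 ± 0.39 with the slide as a block. No direction can be given for Ecel1 from these arrays.

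Mme, whose product neprilysin breaks down endothelins, bradykinin and substance P, was weakly measured. The brighter probe gave -3.89, -3.96, -4.17 and -3.50 in WT saline and -3.57, -4.12, -3.69 and -3.64 in WT cerulein. In transgenic mice it gave -2.70, -3.12 and -4.0 with saline and -3.80, -3.41, -4.05 and -3.58 with cerulein. TG saline 2 and 3 were the highest of the 15 arrays, and TG saline 4 lay among the wild type values. The cerulein difference was 0.12 ± 0.27 in wild type and -0.43 ± 0.29 (adjusted p = 0.426) in transgenic mice. The other probe gave 0.30 ± 0.39 and 0.11 ± 0.42, so the probes differed in sign in transgenic mice. With normexp background correction the brighter probe was called lower in transgenic mice (-0.56, adjusted p = 0.0308).

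**Figure D2:**
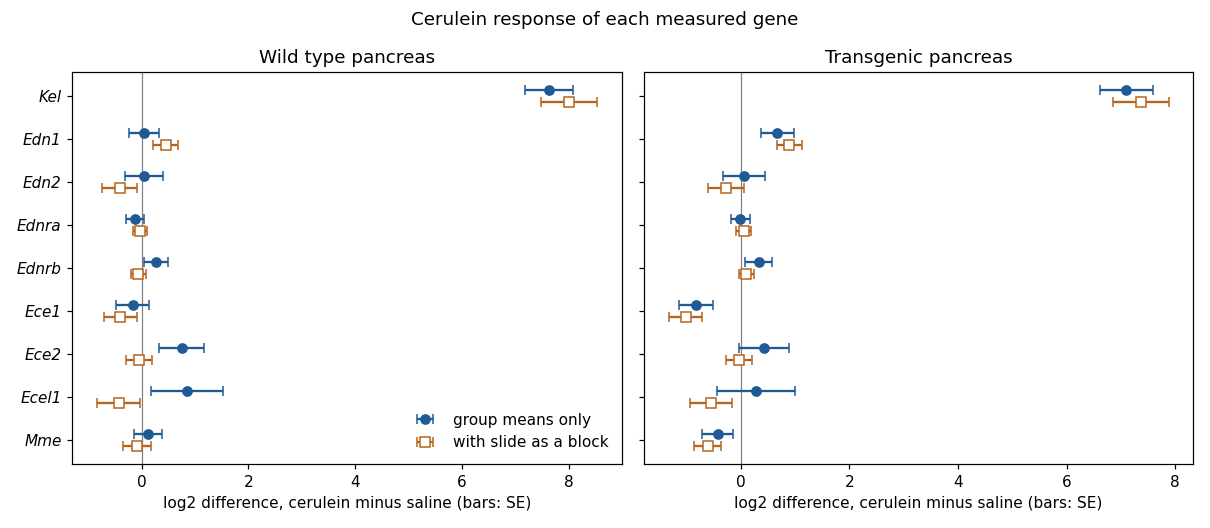
Cerulein minus saline difference (log2, bars are SE) of the 9 measured genes in wild type (left) and transgenic (right) pancreas, from group means alone (filled circles) and with the slide as a block (open squares). Kel lies at 7.63 and 7.10 and the other 8 lie between -0.83 and 0.85; Ece2 and Ecel1 move to or below 0 once the slide is taken into account.

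Kel itself was barely detected in saline animals. Its level was -3.32, -3.59, -3.66 and -3.96 in the WT saline animals, where the third was not well above background, and -3.35, -2.54 and -2.06 in the TG saline animals. With cerulein it was 4.02, 4.82, 2.74 and 4.42 in wild type and 3.38, 5.19, 4.83 and 4.42 in transgenic mice. The lowest cerulein value, that of WT cerulein 11, was 2.74, and the highest saline value, that of TG saline 4, was -2.06. In processed signal these levels were 12.7 to 23.7 intensity units in WT saline, 27.8 to 45.1 in TG saline, 2746 to 8161 in WT cerulein and 3450 to 11628 in TG cerulein, and no spot was saturated.

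The differences were 7.63 ± 0.45 in wild type mice, a 198-fold higher level, and 7.10 ± 0.49 in transgenic mice, a 138-fold higher level. Only Atf3, a stress-induced transcription factor, had a larger difference among 17338 genes in either genotype (9.89 and 9.75). Within slide 1 the Kel difference was 7.34 in wild type and 7.63 in transgenic mice, and within slide 3 it was 8.55 and 7.13. Leaving out each array in turn gave 7.36 to 8.05 in wild type and 6.76 to 7.46 in transgenic mice. Since the saline signals lie near background, the fold depends on the signal and the background correction used: normexp correction with an offset of 50, run on the median spot signals in place of the processed signal, gave 5.46 and 5.75. That alternative also moved the median of all genes to -0.23 in wild type and -0.20 in transgenic mice.

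In the fit on group means the genotype made no difference to Kel that passed the test. With saline, transgenic animals lay 0.98 ± 0.49 above wild type animals (95% interval -0.06 to 2.02, adjusted p = 1), and the groups overlapped through TG saline 2. That difference was -0.03 within slide 1, which held 1 animal of each genotype, and 1.43 within slide 3. With array weights, which let arrays differ in precision, it was 1.25 and passed the test (adjusted p = 0.0374). That fit called 563 of the 17338 genes, against 13 on group means. With normexp the saline difference of Kel was 0.18 and was not called. With cerulein the difference was 0.45 ± 0.45 (adjusted p = 0.844), with 0.27, 0.83 and 0.01 within slides 1, 2 and 3. The response of Kel in transgenic minus that in wild type mice was -0.53 ± 0.66, with a 95% interval from -1.94 to 0.89, so responses that differ by less than these bounds could not be told apart. With normexp this difference of the responses was 0.29.

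In the fit on group means, transgenic and wild type mice did not differ past the threshold in any of the 9 measured members, with either treatment. With saline 0 of 9 were called, beside 0.0750% of all genes, and with cerulein 0 of 9, beside 0.144% of all genes. The difference between the responses was called for 0 of 9 members and 0% of all genes. At an unadjusted p below 0.05, 0 members differed with saline and 1 with cerulein. This was Ece2, which was 0.97 ± 0.42 lower in transgenic mice (adjusted p = 0.676), with differences of -1.14, -0.19 and -0.51 within slides 1, 2 and 3.

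With saline, Ece2 was the only member whose genotypes did not overlap, a separation found in 6.63% of all genes. The measured Ece2 difference was -0.64 ± 0.46 (adjusted p = 1), with a confidence interval of -1.62 to 0.33, which includes no difference. No fold is given, because none of the transgenic animals and only 2 of 4 wild type animals read above background. Edn1 was -0.63 ± 0.30 and Mme 0.60 ± 0.29 in transgenic relative to wild type mice with saline, both with an adjusted p of 1. With cerulein, Ednra was 0.32 ± 0.17 higher in transgenic mice (adjusted p = 0.751), with 0.40, 0.10 and 0.40 within slides 1, 2 and 3. With cerulein no member separated the genotypes, beside 2.51% of all genes. None of these values passed the test.

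Other genes of the system were taken from 3 lists: 24 genes of signalling behind the endothelin receptors, 24 genes of other vasoactive peptides and nitric oxide, and 3 genes related to Kell, of which 45 of 51 were measured. In wild type mice 3 rose and 6 fell with cerulein, 20% of those measured against 14% of all genes. The rises there include Bdkrb2, which no WT saline array read above background. In transgenic mice 3 rose and 0 fell, 6.67% against 8.20%. The direction of the calls in wild type mice moved with the processing: 5 rose and 4 fell with the slide as a block, 1 rose and 8 fell with normexp, and 3 rose and 1 fell without slide 2. In transgenic mice 6 rose and 3 fell with the block, and 2 rose and 2 fell with normexp. The median difference of the 45 was -0.13 and -0.06, beside -0.06 over all genes in both. No gene of these lists was called between genotypes or for a difference in response.

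Of the receptor signalling list, 22 of 24 genes were measured; 2 rose and 4 fell in wild type and 2 rose and 0 fell in transgenic mice. Rgs2, which shortens signalling through Gq-coupled receptors such as those of endothelin and cholecystokinin, rose in both. Its level was 0.56 to 1.53 in WT saline and 2.22 to 3.64 in WT cerulein, and 1.07 to 1.39 in TG saline and 2.16 to 3.56 in TG cerulein, with no overlap. The differences were 1.88 ± 0.38 (adjusted p = 0.00464) and 1.54 ± 0.41 (adjusted p = 0.0319). A dim second probe, above background on 3 arrays, gave 0.53 ± 0.38 and 1.42 ± 0.41.

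Plcb1, a phospholipase C that Gq activates, fell by 1.41 on the log2 scale (SE 0.31, adjusted p = 0.00746) in wild type mice, from a range of -0.10 to 0.68 to one of -1.67 to -0.52. Its difference in transgenic mice was -1.07 (adjusted p = 0.0619), and its second probe gave -0.61 ± 0.23 and -0.57 ± 0.25. Prkca, a calcium-dependent protein kinase C, fell by 1.11 in wild type mice (SE 0.28, adjusted p = 0.0162), whereas its second probe gave -0.15 ± 0.31 there and 0.37 ± 0.34 in transgenic mice. The other called falls in wild type mice were Itpr2, an inositol trisphosphate receptor of the calcium store, at -1.0 ± 0.30 (adjusted p = 0.0398), and the receptor adaptor Arrb1 at -0.72 ± 0.22 (adjusted p = 0.0426). The saline and cerulein animals overlapped for Itpr2 and did not for Arrb1. With the slide as a block Itpr2 was not called in wild type mice (-0.53 ± 0.21, adjusted p = 0.0915) and was called in transgenic mice (-0.66 ± 0.20, adjusted p = 0.036). Arrb1 was called in both with the block, at -0.36 ± 0.10 (adjusted p = 0.0244) and -0.33 ± 0.10 (adjusted p = 0.0304).

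Gna12, a G protein alpha subunit, rose by 1.40 ± 0.41 (adjusted p = 0.0341) in wild type mice and was 0.63 (adjusted p = 0.445) in transgenic mice. Only 1 of the 4 WT saline arrays read it above background, so the size of its rise is uncertain. Rock2, a kinase that promotes contraction of smooth muscle, rose by 1.17 ± 0.29 (adjusted p = 0.0215) in transgenic mice and was 0.74 ± 0.27 (adjusted p = 0.0794) in wild type mice. A second Rock2 probe, also above background on all 15 arrays, gave less, at 0.64 ± 0.36 in transgenic and 0.60 ± 0.33 in wild type mice. With the slide as a block, the call of Gna12 was lost (adjusted p = 0.134), and Rock2 was called in both genotypes, at 1.17 ± 0.17 in wild type and 1.41 ± 0.17 in transgenic mice. The block fit called 3 higher and 3 lower genes of this list in wild type and 5 higher and 2 lower in transgenic mice.

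Of the other vasoactive genes, 21 of 24 were measured; 1 rose and 2 fell in wild type and 1 rose and 0 fell in transgenic mice. Bdkrb2, the constitutive bradykinin receptor, was above background in wild type mice on 3 of 4 cerulein arrays and on none of the saline arrays. Those cerulein arrays alone met the filter for entering the tests. Its call as higher in wild type mice (adjusted p = 0.0134) set cerulein signals against readings not above background. The call is therefore not evidence apart from that detection, and the level was at least 1.08-fold higher. Anpep, an aminopeptidase that trims vasoactive peptides, fell by 1.31 (SE 0.35, adjusted p = 0.0247) in wild type mice and lost its call with the slide as a block (adjusted p = 0.0635). Npr2, a natriuretic peptide receptor, was at -0.93 ± 0.29 in wild type mice (adjusted p = 0.0463), and was also not called there with the block (adjusted p = 0.120), which called it in transgenic mice (-0.59 ± 0.18, adjusted p = 0.0363). Lnpep, the aminopeptidase that cleaves oxytocin and vasopressin, rose by 1.34 ± 0.39 (adjusted p = 0.0484) in transgenic mice, beside 1.07 ± 0.36 (adjusted p = 0.0618) in wild type mice, where it was called with the block (1.57 ± 0.31, adjusted p = 0.00347). The endothelial nitric oxide synthase Nos3 was at -0.51 and -0.36, and adrenomedullin, Adm, at 0.01 and 0.41, none of them called.

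These counts rest on few animals. In wild type mice the 9 calls became 3, 4 and 4 without WT saline 6, 7 and 8, and 14, 5 and 3 without WT cerulein 10, 11 and 12, and 4 without slide 2. In transgenic mice the 3 calls became 1, 0 and 0 without TG saline 2, 3 and 4, and 0 and 1 without TG cerulein 14 and 15. Leaving out 1 array never ended the wild type calls of Rgs2 or Plcb1. It ended the wild type calls of Anpep (without WT saline 6 or 7 or WT cerulein 11 or 12), Bdkrb2 (without WT saline 6), Gna12 (without WT saline 6, 7 or 8 or WT cerulein 11 or 12) and Prkca (without WT saline 8 or WT cerulein 11 or 12). The wild type calls of Arrb1 and Npr2 were each ended by 11 of the 15 arrays and that of Itpr2 by 9, with adjusted p then reaching at most 0.128. Each transgenic call was ended by leaving out any 1 of the TG saline arrays, and adjusted p then reached at most 0.152, for Lnpep.

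**Figure D3:**
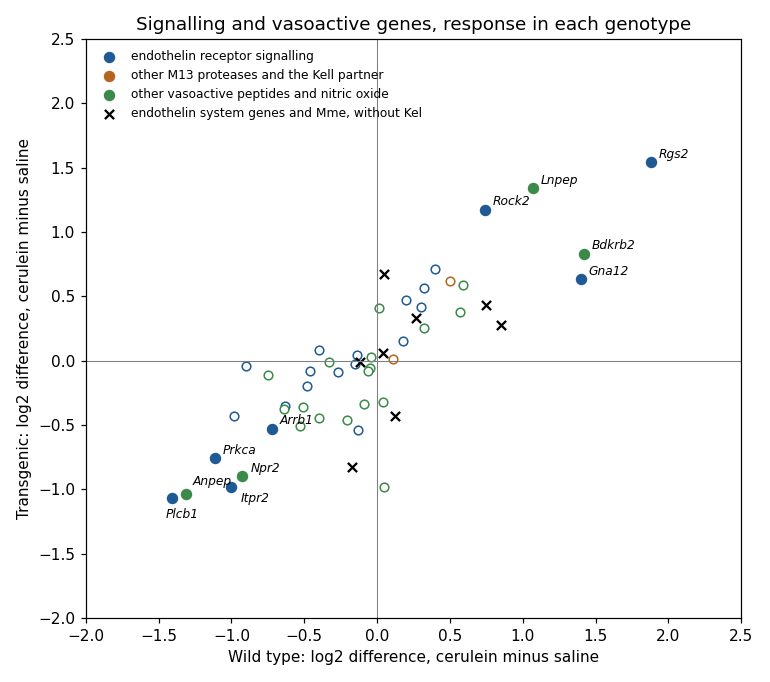
Cerulein minus saline difference (log2) in wild type mice (horizontal) and in transgenic mice (vertical) for the 45 measured genes of the 3 lists and, as crosses, for the 8 measured members other than Kel. Filled symbols are genes called in at least 1 genotype. Rgs2 lies highest at 1.88 and 1.54, Plcb1 lowest in wild type mice at -1.41, and the crosses lie among the open symbols.

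The other M13 proteases and the partner of Kell on red cells were not called. Xk encodes the membrane protein to which Kell is joined by a disulphide bond. It was above background on all arrays, with differences of 0.11 ± 0.36 in wild type and 0.01 ± 0.39 in transgenic mice, and with the slide as a block -0.53 ± 0.18 (adjusted p = 0.0522) and -0.44 ± 0.17 (adjusted p = 0.0912). Its second probe gave 0.08 ± 0.64 and 0.50 ± 0.69, and within slides 1 and 3 it read higher with cerulein (2.28 and 0.76 in wild type, 0.63 and 0.98 in transgenic mice), where the probe used read lower (-0.73 and -0.33, and -0.14 and -0.81). The probes of Xk thus differed in sign within slides. Mmel1, a close relative of neprilysin, was at 0.50 ± 0.26 (adjusted p = 0.198) and 0.62 ± 0.28 (adjusted p = 0.206). Phex, a bone and tooth protease, was not well above background on any array.

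Since Kell is a red cell protein, erythroid markers were read beside Kel. Of 20 listed genes, 18 were on the array and 9 were above background on all arrays. In the cerulein responses 0 of the 16 measured markers were called higher in either genotype, and 1, Epor, was called lower in wild type mice, where the block called 2 lower and 0 higher. The summed signal of the list, in multiples of the array's 75th percentile, was 137 to 489 in WT saline, 216 to 430 in TG saline, 149 to 795 in WT cerulein and 166 to 802 in TG cerulein. Haemoglobin genes made up most of it: Hba-a2 was 7.41 ± 0.79 (SD, n = 4) in WT saline and 7.53 ± 1.06 (n = 4) in WT cerulein. The summed erythroid ranges of the 4 groups overlapped, and their part in the level of Kel was not tested.

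Markers of the cells that make or receive endothelins were also read. None of the 12 endothelial markers and none of the 10 measured markers of smooth muscle and pericytes were called in a cerulein response on group means. Of the endothelial markers 10 read lower with cerulein in wild type and 9 in transgenic mice (medians -0.37 and -0.28, beside -0.06 over all genes). Of the smooth muscle and pericyte markers 7 and 6 read lower (medians -0.16 and -0.04). With the slide as a block the endothelial receptor gene Kdr was called lower in transgenic mice (-0.55 ± 0.17, adjusted p = 0.0418), and the pericyte marker Cspg4 was called lower in both genotypes (-0.65 ± 0.15, adjusted p = 0.0102, in wild type and -0.63 ± 0.15, adjusted p = 0.0108, in transgenic mice). The summed endothelial level was 125 to 186 in WT saline and 69.0 to 138 in WT cerulein, and 101 to 169 in TG saline and 44.3 to 101 in TG cerulein, so the ranges of saline and cerulein animals overlapped in wild type mice and met at 101 in transgenic mice. The smooth muscle sum was 63.2 to 87.7, 44.5 to 82.9, 66.4 to 84.3 and 50.8 to 73.0 in the same order, and Lmod1 of that list was above background on no array. Of 9 fibroblast and stellate cell markers, 3 (Col1a1, Col1a2 and Lum) were called higher in transgenic than in wild type mice with cerulein (5 with the block), where Ednra was 0.32 higher without a call. The fibroblast sum was 45.4 to 92.3 in WT cerulein and 121 to 246 in TG cerulein. The part of these cells in the values of Edn1, Ednra and Ednrb was not tested.

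Of 10 acinar markers, 1 was called higher and 2 lower in wild type and 1 higher and 1 lower in transgenic mice. All 10 were above background on every array, so the defining markers of the labelled tissue were present. In both genotypes 9 of the 10 read lower with cerulein, with medians of -0.80 in wild type and -0.68 in transgenic mice, beside -0.06 over all genes. Their summed level was 13038 to 21917 in WT saline and 7872 to 17307 in WT cerulein. In transgenic mice it was 11435 to 17909 with saline and 6346 to 12544 with cerulein. Of 8 measured neutrophil markers, 2 (S100a8 and S100a9) were called higher in wild type and 0 in transgenic mice, and of 9 islet markers 0 were called in either. S100a8 was above background on 1 of 4 WT saline arrays. Csf3r and Elane, among the 3 brightest neutrophil markers, read lower with cerulein in both genotypes, and the block called Elane lower in transgenic mice (adjusted p = 0.0247). The summed neutrophil level was 110 to 197 in WT saline and 84.1 to 195 in WT cerulein. It was 153 to 209 in TG saline and 92.8 to 197 in TG cerulein. With saline all 8 neutrophil markers already read higher in transgenic than in wild type mice (median 1.11), with 0 called. The difference between the genotypes' responses was called for 0 of the 8. All 9 islet markers read lower with cerulein in both genotypes, with medians of -0.66 in wild type and -0.44 in transgenic mice. The part of acinar cells, neutrophils and islet cells in the values of the members was not tested.

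The neighbours of Kel on its chromosome, by RefSeq order, showed no called response. Of the 3 genes on each side, Gm34642 and Gm38796 had no matched probe and Trpv5, a calcium channel gene, was above background on no array. Llcfc1 was above background on all 15 arrays, with differences of 0.43 ± 0.23 (adjusted p = 0.215) and -0.16 ± 0.25 (adjusted p = 0.759). Olfr459 and Pip were each above background on 4 arrays, with 1.51 ± 0.58 (adjusted p = 0.0923) and 0.69 ± 0.50 (adjusted p = 0.354) in wild type mice and 0.70 ± 0.62 and -0.12 ± 0.54 in transgenic mice.

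The 6 genes whose levels were most like those of Kel over the 15 arrays were Rcan1, Gadd45a, Sgms2, Atf3, Zfp143 and Tgif1, each with Pearson's r of 0.99. Rcan1 encodes an inhibitor of calcineurin, Gadd45a a growth arrest protein, Sgms2 a sphingomyelin synthase, and Tgif1 and Zfp143 transcriptional regulators. Their differences with cerulein ranged from 2.65 for Tgif1 to 9.89 for Atf3 in wild type mice. Saline and cerulein arrays form separate clusters for all of them, and these r values therefore mainly describe the gap between treatments. Over the 8 cerulein arrays alone, r with Kel was 0.93 for Zfp143, 0.80 for Rcan1, 0.78 for Sgms2, 0.66 for Atf3, 0.63 for Gadd45a and 0.60 for Tgif1. Over the 7 saline arrays it was 0.84 for Zfp143, 0.68 for Gadd45a, 0.50 for Atf3 and Tgif1, 0.23 for Rcan1 and 0.10 for Sgms2. The AP-1 letters shown for Kel also occurred in 1 of 2 start windows of Rcan1 and in 2 of 6 of Sgms2, and in none of those of Gadd45a, Atf3, Zfp143 or Tgif1.

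**Figure D4:**
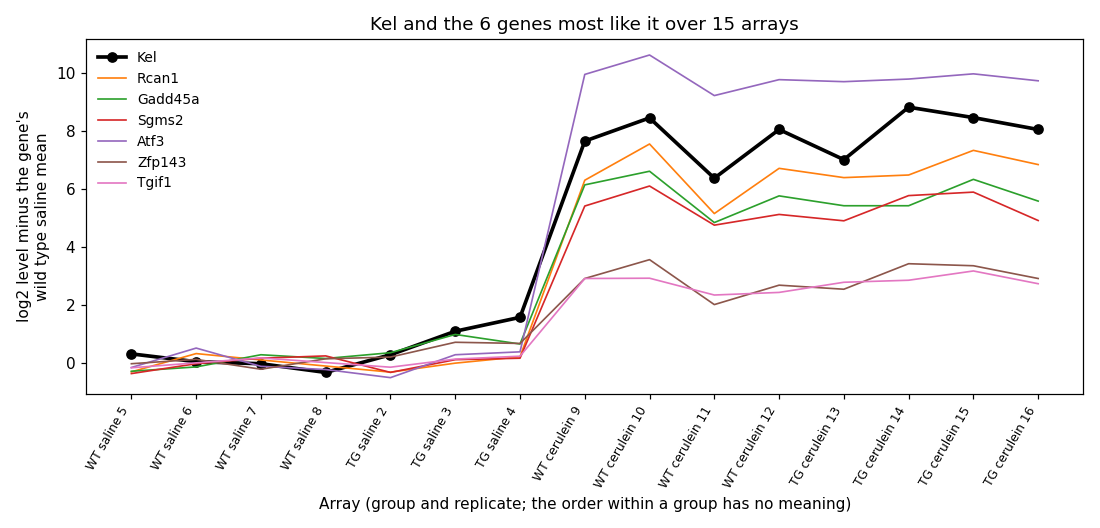
Level of Kel (black) and of the 6 genes most like it on each of the 15 arrays, as log2 units above the gene's own mean in WT saline. The 7 saline arrays lie between -0.51 and 1.57 and the 8 cerulein arrays between 2.01 and 10.6, and WT cerulein 11, the lowest cerulein array for Kel, is also the lowest for Rcan1, Gadd45a, Sgms2, Atf3, Zfp143 and Tgif1.

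The nearest genes of 4 other members were also read. Edn1 was most like Sco2 (r = 0.86), Dohh and Abhd5 (both 0.83), Ednra most like Ptprr (0.85), Fam183b and Twist2 (both 0.83), Ednrb most like Tlr1 (0.95), Ccdc33 and Smpdl3b (both 0.94), and Ece1 most like Ankrd61 (0.88), Catsperg2 (0.86) and Hcrtr1 (0.85), over 15 arrays that share slides and treatments. Between Kel and the other members r ranged from -0.53 with Ece1 to 0.47 with Ednrb.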

How the data were processed

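Messenger RNA was measured on 15 Agilent one-colour arrays. Per the file headers, the authors obtained the intensity of each spot with Agilent Feature Extraction 10.7.3.1, which subtracted background within each array, and no scaling between arrays was applied. The deposited flags, another kind of value (0 or 1 per spot), mark spots above background and outliers. The deposited series table holds log2 values that the authors normalised in a way the sources used here do not state. The values in it correlated with the scanner signals at r = 0.987 to 0.998 (column medians 6.56 to 6.93) and it served only as an alternative.

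Outlier spots (105 to 188 per array) were dropped, spots of a probe averaged, and 27235 probes named through a RefSeq table. Each of the 17338 genes tested was read from its brightest probe that passed the background filter. Tests used limma 3.58.1 (R 4.3.3, and version 1.17.8 of the data.table package), with lmFit and eBayes on 4 group means, two-sided, with 11 residual and 3.54 prior degrees of freedom and Benjamini-Hochberg adjustment over genes in each of 5 comparisons. The model was first tested on simulated data. The p-values set group differences against the spread between animals within groups, and the number of arrays limits the precision. In the fit on group means that spread also holds differences between slides. The "at least" fold, given for Bdkrb2, set the bright group's mean against the lowest signal above background on the dim group's arrays.

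The members, the lists of related genes and markers and the rule for named genes were chosen with earlier results of these data known. Named were all members, up to 3 called genes per direction of the related lists with the largest change, and Mmel1, Phex and Xk. Also named were 3 neighbours on each side of Kel and the 6 genes most correlated with Kel. The 3 genes most correlated with each of Edn1, Ednra, Ednrb and Ece1 were named too. The rule also held the 3 brightest markers of each list, of which only some are named here. Itpr2, Arrb1, Npr2, Nos3, Adm, Epor, Lum, Cspg4, Col1a1, Lmod1 and S100a8 were named after their values were seen. Results for some listed genes are not reported here. Start windows come from RefSeq (GRCm38.p6). Alternatives changed the background correction, scaling, filter, probe choice, array weights, samples in the fit and slide.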

Additional observations from a re-analysis of the deposited data

Results flagged for a closer look

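Ece2 on TG cerulein 16 read -2.60, far from the other 3 animals of its group, which read between -4.53 and -4.25. The gap to the nearest of them was 0.86 of the range of the group. This animal was the only one of the group on slide 2 and the only one with an Ece2 signal above background. It was the 1 of 36 groups of 4 arrays, over the members' probes, that held such a value. Chance gives about 1 in 20.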

How the results depend on the processing

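No paired analysis was possible because the labels number every animal separately and no replicate number is shared between groups. Over 1086 member differences recomputed under alternatives, 9 gained a call, 0 were called with the opposite sign, and 86 changed sign with no call on either side. None of them was called in the main fit, so none could lose a call. Of members, Kel aside in the responses, array weights called 2 in the wild type and 3 in the transgenic response (main 0 each) and, between genotypes with saline, Kel alone (1 member, 1.25, adjusted p = 0.0374). The weights were fitted gene by gene because the default method did not converge. Normexp called 1, Mme (-0.56, adjusted p = 0.0308), in the transgenic response, where it called 1912 of all 17338 genes. The slide block called 2 members there. Related genes called in the wild type response (main 9) numbered 19 with array weights, 5 with only the 2 groups compared and 4 without slide 2, chosen after seeing the data. In the transgenic response (main 3) they numbered 6 with quantile normalization, 9 with the slide block and 21 with array weights. Array weights called 1 between genotypes with saline. Leaving out 1 array gave 3 to 14 in the wild type response, 0 to 4 in the transgenic response, 0 to 1 between genotypes with cerulein (1 without TG cerulein 16), and 0 members in each of the 5 comparisons.

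Array weights called 7096 and 7714 of all genes in the responses, against 2425 and 1421. Between genotypes with saline they called 563, against 13. The slide block raised the share of higher calls in wild type mice from 40.3% to 63.9%, normexp lowered it to 29% and leaving out slide 2 gave 71.2%. Normexp, also chosen after seeing the data, used median signals since the files used here give no mean signal. Members near background (Edn1, Edn2, Ece2, Mme) bear only coarse statements. The causes were not tested.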
